A study of Gallus gallus with 6 samples.

Results

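The genes described here encode the protein folding and protein degradation machinery: the proteasome subunits, the cytosolic chaperonin, the heat shock proteins with their J-domain partners, and the chaperones of the endoplasmic reticulum (ER). They were chosen by gene symbol, with earlier results of these data known but no measured value in the rule, and each gene was represented by its brightest probe set over the 6 arrays. In all, 110 of 13051 genes matched, and they were covered by 201 of 38439 tested probe sets. Transcript levels were measured in tissue around a heparin acrylic bead placed in the posterior forelimb bud mesoderm of chicken embryos at stage HH23, and the tissue was collected 24 h later, at stage HH25. In the FGF2 group (3 arrays) the bead carried recombinant human fibroblast growth factor 2, and in the PBS group (3 arrays) it carried phosphate-buffered saline. All embryos thus had a bead and the same surgery, and no genetic change was made in either group. The methods state that embryos were pooled for each array and that the pools were made on separate days, so a p-value here reflects how much pools differed.

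The proteasome is the barrel-shaped protease that degrades ubiquitin-tagged proteins, with a 20S core that cuts and a 19S cap that recognizes, unfolds and feeds in the substrate. Chaperones hold or fold unfinished proteins: HSP70 and HSP90 act in most compartments with J-domain and other co-chaperones, the chaperonin CCT folds actin and tubulin in a closed chamber, and small heat shock proteins keep unfolded proteins from clumping. Many of these genes are also switched on by heat shock factors or, in the ER, by the unfolded protein response.

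Array medians lay between 4.75 and 4.81 on the log2 scale, and arrays correlated across probe sets at 0.9976 to 0.9988 (Pearson) inside a group and at 0.9962 to 0.9981 between FGF2 and PBS arrays. The limb mesenchyme markers PRRX1, TWIST1 and TBX5 had log2 values of 11.08 or more on every array, whereas LHX9 varied between 4.94 and 8.58. MSX1, also of this list, gave 10.15, 10.64 and 10.09 in the FGF2 arrays and 8.105, 8.221 and 8.202 in the PBS arrays. Its difference was 2.12 ± 0.15 (SE), with an adjusted p of 0.0681 in limma. Mean levels of 4 marker lists of other cell types are given here because they differed between the groups or their arrays. The 8 skeletal muscle markers averaged 10.50 to 11.29 in the FGF2 arrays and 11.15 to 11.53 in the PBS arrays, and the 5 cartilage markers 9.60 to 10.76 in the FGF2 arrays and 10.12 to 11.22 in the PBS arrays, with overlap in both lists. Among the cartilage markers COL2A1, ACAN, MATN1 and EPYC had differences below 0. SOX9 went the other way, at 0.23 ± 0.095 (SE), with overlapping groups. The 6 macrophage markers averaged 5.73 to 6.45 in the FGF2 arrays and 4.60 to 4.90 in the PBS arrays, with PTPRC and MARCO near background in both groups. The 4 nerve markers averaged 7.73 to 7.96 in the FGF2 arrays and 7.04 to 7.61 in the PBS arrays. Among them STMN2 was higher in every FGF2 array, by 2.44 ± 0.26 (SE; adjusted p = 0.147), SOX10 was lower in every FGF2 array, at −0.78 ± 0.36, and TUBB3 and NEFM overlapped. In such whole-tissue RNA, fewer cells of a type and less RNA per cell cannot be told apart.

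No gene of the set passed an adjusted p of 0.05. The smallest was 0.451, for PDIA5, and over all 13051 genes 0.00766% passed. At an unadjusted p under 0.05, 6 members were higher around FGF2 beads (5.46% of the 110, beside 7.76% of all genes) and 4 were lower (3.64%, beside 4.58%). The 3 FGF2 values lay above all 3 PBS values for 8 members (7.27%, beside 9.12%) and below them for 5 (4.55%, beside 6.83%). None of these shares exceeded that of all genes. An exact permutation test of 3 arrays against 3 cannot give a p under 0.1.

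On the brightest probe set of each gene, the differences were small and most were bounded closely. Other probe sets gave larger differences for some genes and smaller ones for others. Whether bright probe sets give smaller differences than dimmer ones was not tested. The median log2 fold change, FGF2 minus PBS, was 0.023 over the 110 members and −0.013 over all genes, with 63 members above 0 and 47 below. A total of 106 members (96.4%) differed by less than 1.2-fold, beside 87.7% of all genes. The 95% interval of the difference stayed within 1.2-fold in either direction for 67 members (60.9%) and within 1.5-fold for 103 (93.6%). Among the 9936 genes above background, which is set here at 3.57, the 95th percentile of probe sets named after other records, the interval was within 1.2-fold for 39.4% and within 1.5-fold for 82.4%. Of the 103 members above that background the interval was within 1.2-fold for 59.2% and within 1.5-fold for 93.2%. The median log2 fold change was 0.025 for these members and 0.021 for the 9936 genes above background, with 60.2% and 56.5% above 0. On this like comparison the medians lay close together. The median moderated standard error (SE) was 0.067 for these members and 0.081 for those genes, and the median size of the difference was 0.066 for the members and 0.094 for those genes. Without that restriction the median SE was 0.063 for the 110 members and 0.068 for all genes, and the intervals of all genes were within 1.2-fold for 51.1% and within 1.5-fold for 85.8%. For 7 members, namely DNAJB8, DNAJB13, DNAJC6, DNAJC22, HSPB2, HSPB7 and PDIA2, both group means lay at or under that background, so their small differences say little about expression.

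**Figure D1:**
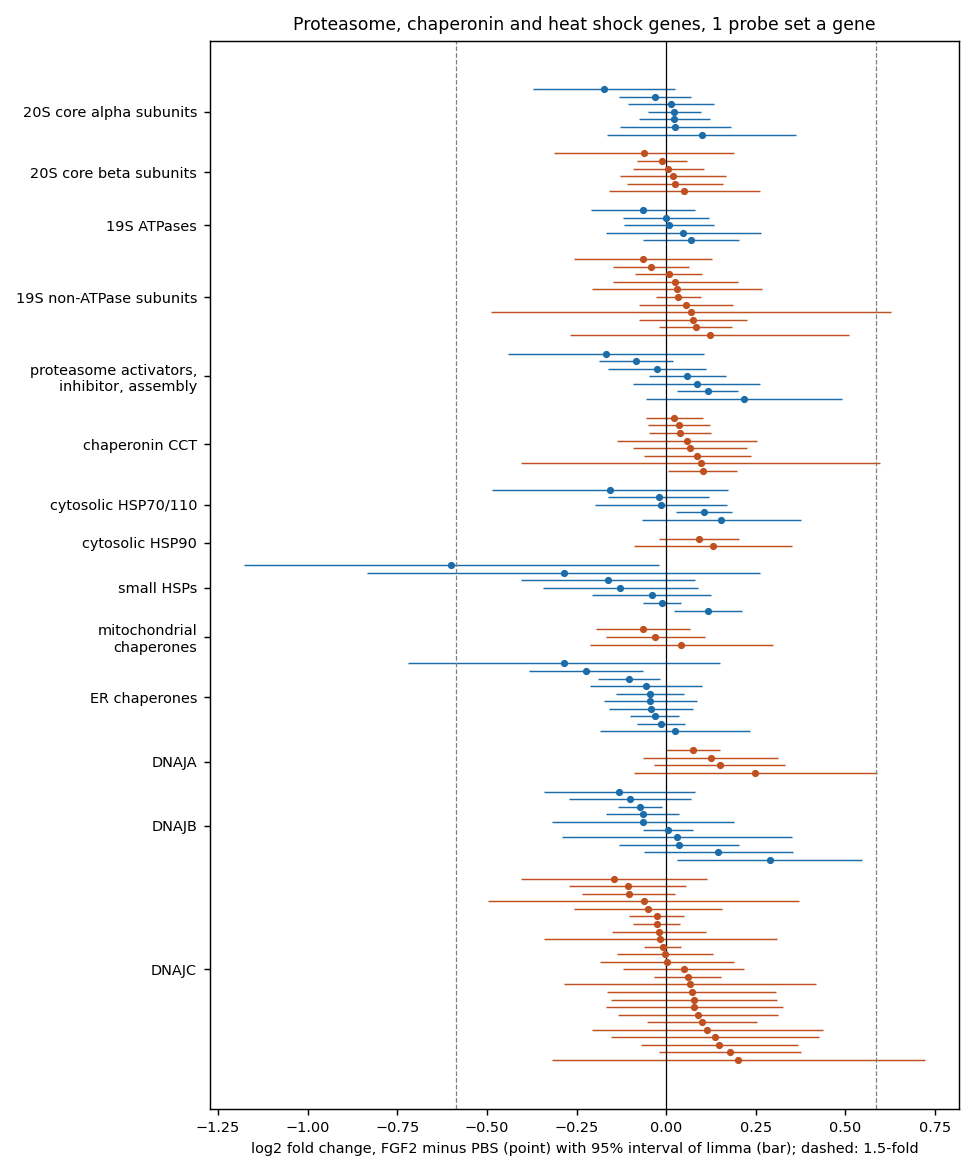
Log2 fold change, FGF2 minus PBS, of each of the 110 members (points) with the 95% interval of limma (bars), grouped by role; colors alternate between groups and the dashed lines mark 1.5-fold. The points run between −0.60 (HSPB8) and 0.29 (DNAJB5), and 103 intervals lie within 1.5-fold.

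**Figure D2:**
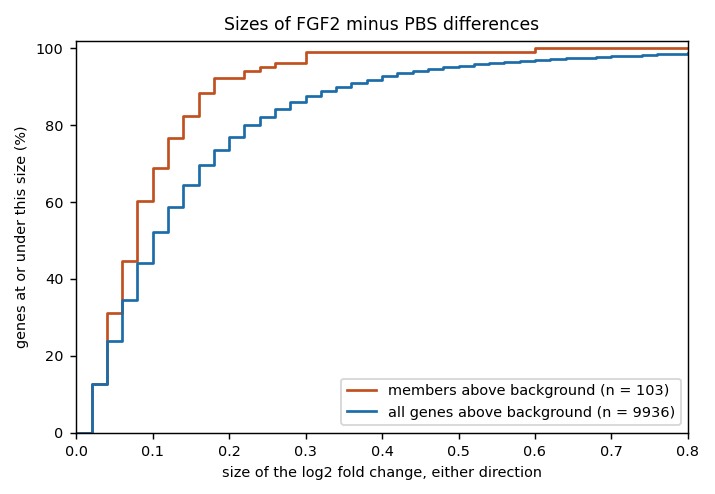
Share of genes (%) at or under a given size of the log2 fold change in either direction, for the 103 members above background and the 9936 genes above background. The median size was 0.066 for these members and 0.094 for all such genes.

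The proteasome genes differed little between FGF2 and PBS tissue. Of 36 measured genes 25 had a log2 fold change above 0 and 11 below, with a median of 0.024. All 36 differed by less than 1.2-fold, beside 84.5% of all genes above background. The interval lay within 1.2-fold for 27 of them and within 1.5-fold for 35. The exception was PSMD2, a scaffold subunit of the 19S base, whose arrays spread widely: 11.92, 11.95 and 11.46 in FGF2 tissue, against 11.31, 11.90 and 11.91 in PBS tissue. One array of each group was low there, so the spread within each group exceeded the difference of 0.070 ± 0.22 (SE).

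In the 20S core, which holds the proteolytic chamber, the 7 alpha subunits had a median log2 fold change of 0.023 and the 6 beta subunits 0.012. PSMA2 (Entrez Gene 420772), an alpha subunit, gave 12.03, 11.93 and 12.05 in FGF2 tissue and 12.13, 12.33 and 12.07 in PBS tissue. The FGF2 values all lay below the PBS values, by 0.17 ± 0.078 (SE; adjusted p = 0.606). A second probe set, little above background at 4.02 against 4.19, gave −0.16 with overlapping groups. PSMA7 had the highest difference of the alpha subunits, at 0.099 ± 0.10, with 13.13, 12.99 and 12.94 against 12.73, 13.09 and 12.94, so its groups overlapped. The beta subunits with catalytic sites measured here were PSMB5, which cuts after hydrophobic residues, and PSMB7, which cuts after basic ones. PSMB5 gave 7.34, 7.29 and 7.32 in FGF2 tissue and 7.30, 7.36 and 7.33 in PBS tissue, and its interval ran from −0.080 to 0.058; its probe set belongs to a class that can match several transcripts. PSMB7 gave −0.063 ± 0.10 and PSMB3, a structural subunit, 0.051 ± 0.084, both with overlapping groups.

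In the 19S cap, the 5 ATPases that unfold the substrate had a median of 0.0069, between −0.064 for PSMC5 and 0.070 for PSMC3. The 11 PSMD genes had a median of 0.034, between −0.066 for PSMD6 and 0.12 for PSMD13. Among these, PSMD5, whose value is that median, PSMD9 and PSMD10 serve in cap assembly and are not subunits of the finished cap. PSMD7, a subunit of the lid, gave 13.27, 13.32 and 13.27 in FGF2 tissue against 13.13, 13.23 and 13.25 in PBS tissue. Its FGF2 values lay above all PBS values, but by only 0.082 ± 0.041 (adjusted p = 0.639), and PBS replicate 1 was the lowest array. PSMD13 spread over 10.82, 10.92 and 10.43 in FGF2 tissue and 10.41, 10.70 and 10.70 in PBS tissue, the same 2 low arrays as PSMD2.

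Among the genes that open, block or assemble the core, PSME4 had 3 probe sets with differences in the same direction. It encodes PA200, a cap that can open the 20S core in place of the 19S cap. Its representative gave 11.28, 11.31 and 11.35 in FGF2 tissue and 11.24, 11.21 and 11.15 in PBS tissue, with no overlap, a difference of 0.12 ± 0.034 (1.08-fold) and an adjusted p of 0.461. The second gave 9.31, 9.38 and 9.18 against 9.03, 9.12 and 9.19, a difference of 0.18 ± 0.065, and the third 9.09, 9.20 and 9.12 against 8.97, 9.03 and 8.78, a difference of 0.21 ± 0.073. Each of the 3 had an unadjusted p under 0.05, and probe sets of 1 gene on the same arrays are not independent of each other. The proteasome inhibitor PSMF1 gave 11.80, 11.86 and 11.76 in FGF2 tissue and 11.86, 11.95 and 11.88 in PBS tissue, or −0.084 ± 0.041 (adjusted p = 0.630). Of the assembly chaperones, PSMG1 gave 11.40, 11.39 and 11.21 in FGF2 tissue against 10.91, 11.25 and 11.19 in PBS tissue, the highest difference of any proteasome gene at 0.22 ± 0.11 (adjusted p = 0.643) and 0.11 without PBS replicate 1, while PSMG4 gave −0.17 ± 0.11. The other probe sets of PSMG4 gave 0.059 and 0.22, the opposite sign.

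Among the proteasome genes the direction rested on 1 array of each group, PBS replicate 1 and FGF2 replicate 1. PBS replicate 1 held the lowest of the 6 values for 25 of 36 genes (69.4%), against 27.6% of all genes above background, and for no proteasome gene did it hold the highest. FGF2 replicate 1 held the highest value for 15 of the 36 and PBS replicate 2 for 11. Relative to the PBS mean, the median proteasome gene stood at 0.077, 0.029 and −0.024 in FGF2 replicates 1, 2 and 3 and at −0.075, 0.062 and 0.018 in PBS replicates 1, 2 and 3. With PBS replicate 1 left out, 13 of 36 genes remained above 0, none of the 6 beta subunits among them, and the median turned to −0.025. With FGF2 replicate 1 left out, 18 genes stood above 0 and 18 below, with a median of 0.00060. The skeletal muscle list stood at −0.71, −0.92 and −0.11 in the FGF2 arrays and at 0.15, −0.23 and 0.070 in the PBS arrays. The cartilage list stood at −0.77, −0.93 and 0.048 in the FGF2 arrays and at 0.55, −0.50 and 0.059 in the PBS arrays, so that FGF2 replicate 3 and PBS replicate 1, the lowest arrays of their groups for the proteasome, were the highest of their groups for muscle and for cartilage. The part of these cell types in the proteasome levels was not tested. The 3′ minus 5′ difference of the actin control, a sign of RNA length, was −0.29, −0.40 and −0.11 in the FGF2 arrays and −0.14, −0.11 and −0.28 in the PBS arrays, and did not set PBS replicate 1 apart.

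**Figure D3:**
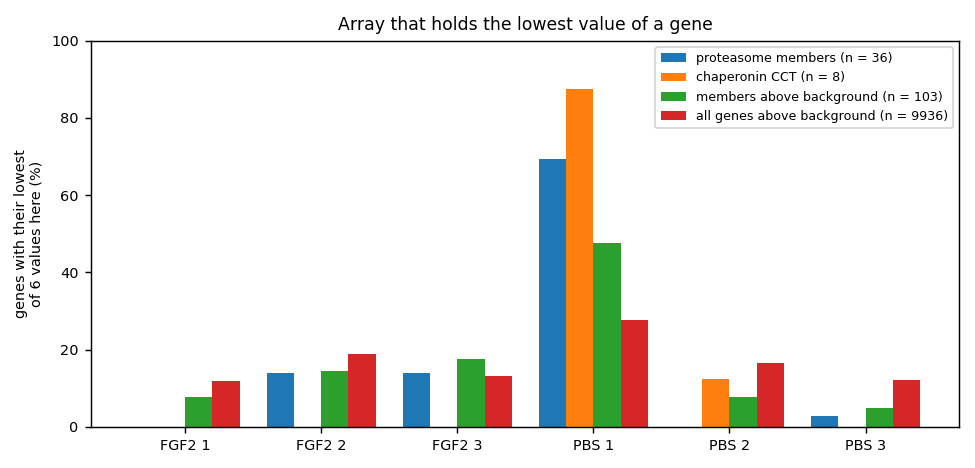
Share of genes (%) whose lowest of the 6 values fell in each array, for 36 proteasome genes, 8 chaperonin genes, the 103 members above background and the 9936 genes above background. PBS replicate 1 holds the lowest value of 69.4% of proteasome genes and 87.5% of chaperonin genes, against 27.6% of all genes above background.

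All 8 genes of the chaperonin CCT, the ring that folds actin and tubulin, had log2 fold changes above 0, between 0.022 for CCT4 and 0.10 for TCP1, with a median of 0.062. TCP1 (Entrez Gene 421586), its founding subunit, gave 15.00, 14.98 and 14.92 in FGF2 tissue and 14.81, 14.90 and 14.88 in PBS tissue. The groups did not overlap, and the difference was 0.10 ± 0.039 (1.07-fold; unadjusted p = 0.0432, adjusted p = 0.548). The groups overlapped for all other subunits, of which those except CCT4 are named after their values were seen. CCT7 gave 13.42, 13.45 and 13.26 in FGF2 tissue against 13.25, 13.33 and 13.28 in PBS tissue, with FGF2 replicate 3 among the PBS values. CCT3 had the widest interval, −0.41 to 0.60, and the same low arrays as PSMD2: 11.64, 11.68 and 11.24 in FGF2 tissue and 11.07, 11.62 and 11.58 in PBS tissue. For the remaining 7 subunits the interval stayed within 1.2-fold. PBS replicate 1 was the lowest array for 7 of the 8 subunits. Without it 6 of 8 stood above 0 with a median of 0.020, and with array weights 4 of 8, with a median of −0.00023.

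The stress-inducible and constitutive chaperones of the cytosol gave a mixed picture. HSPA4, an HSP110-type exchange factor that recharges HSP70, gave 13.11, 13.17 and 13.08 in FGF2 tissue and 13.02, 13.01 and 13.02 in PBS tissue. The PBS arrays were within 0.013 of each other and all FGF2 arrays lay above them, a difference of 0.10 ± 0.031 (1.08-fold; adjusted p = 0.464). Its second probe set gave 11.41, 11.27 and 11.34 against 11.77, 11.45 and 11.35, a difference of −0.18 ± 0.12, so the signs of its probe sets differed. HSPH1, another HSP110 protein and heat-inducible in mammals, gave 10.04, 9.66 and 9.65 in FGF2 tissue and 9.95, 10.07 and 9.80 in PBS tissue, or −0.16 ± 0.13. HSPA2, an HSP70 protein, gave −0.015 ± 0.073 with overlapping groups, and HSP90AB1, the constitutive HSP90, 0.092 ± 0.044 (adjusted p = 0.623) with PBS replicate 2 touching the lowest FGF2 array.

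In a further set of chaperones, PBS replicate 2 lay near the FGF2 arrays while PBS replicates 1 and 3 were lower. The genes of this set were grouped after their values were seen, so it is a description only. HSPA8, the constitutive HSP70 of the cytosol, gave 14.94, 15.03 and 14.90 in FGF2 tissue and 14.69, 14.98 and 14.73 in PBS tissue, or 0.15 ± 0.088. HSP90AA1, the inducible HSP90, gave 14.98, 14.95 and 14.92 against 14.66, 14.99 and 14.80, or 0.13 ± 0.087, and its second probe set showed the same order at 0.24 ± 0.14. DNAJA4, a J-domain partner of HSP70, gave 12.72, 12.83 and 12.71 in FGF2 tissue and 12.22, 12.73 and 12.55 in PBS tissue, or 0.25 ± 0.13 (adjusted p = 0.643). Its second probe set, 10.63, 10.73 and 10.54 against 10.13, 10.51 and 10.30, had no overlap and a difference of 0.32 ± 0.11, while the remaining probe sets were near background. DNAJB5, also a J-domain protein, gave 7.98, 7.96 and 7.94 in FGF2 tissue and 7.53, 7.90 and 7.58 in PBS tissue. This was the highest log2 fold change of any member, 0.29 ± 0.10 (1.22-fold; adjusted p = 0.531), and a second probe set gave 0.76 ± 0.35. CHORDC1, an HSP90 co-chaperone that is not a member, had the same pattern on a wider scale: 9.98, 9.88 and 9.91 in FGF2 tissue against 8.70, 9.85 and 8.99 in PBS tissue, a difference of 0.74 ± 0.30 (1.67-fold; adjusted p = 0.570). BAG3, a co-chaperone that is likewise no member, gave 10.65, 10.63 and 10.68 against 10.11, 10.68 and 10.36. In each of these genes the 3 FGF2 arrays lay closer together than the PBS arrays, which grouping them by their PBS values favors. The range was 0.036 in FGF2 tissue and 0.37 in PBS tissue for DNAJB5, and 0.12 in FGF2 tissue and 0.51 in PBS tissue for DNAJA4. Without PBS replicate 2 the difference was 0.40 for DNAJB5 and 0.36 for DNAJA4, and without PBS replicate 1 it was 0.22 and 0.11. Over all 110 members the SD was larger in the PBS group for 54.

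**Figure D4:**
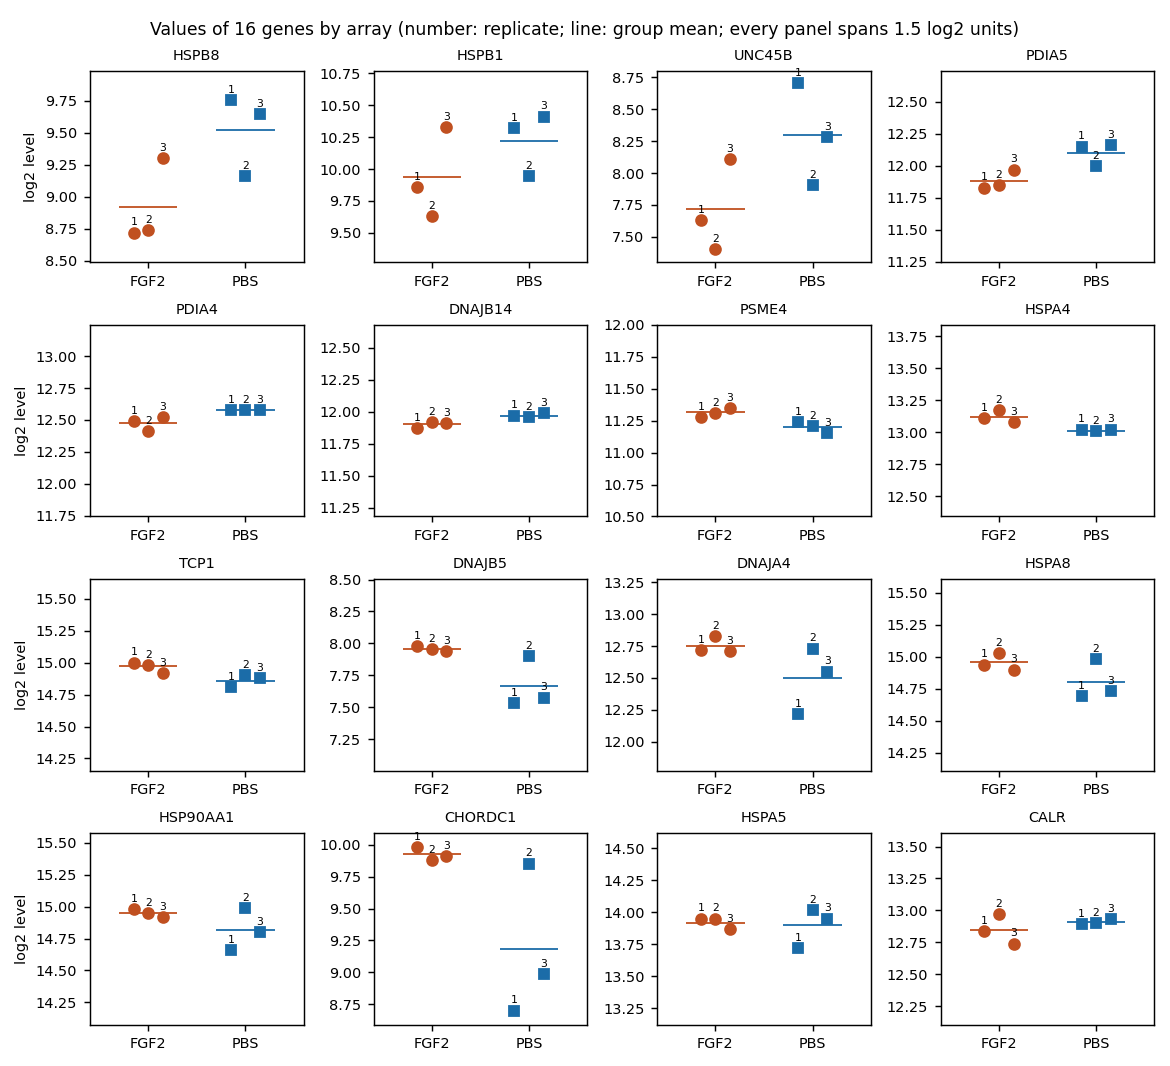
Log2 level of 16 genes in each array, with FGF2 as circles and PBS as squares, replicate numbers beside the points and lines at the group means; every panel spans 1.5 log2 units and has its own scale position. In DNAJB5, DNAJA4, HSPA8, HSP90AA1 and CHORDC1, PBS replicate 2 lies close to the FGF2 arrays and PBS replicate 1 is the lowest.

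The small heat shock proteins bind unfolding proteins, and several are abundant in muscle. Of 7 genes 6 had log2 fold changes below 0, with a median of −0.13. Among these 6, HSPB2 and HSPB7 were near background. HSPB3, whose value is that median, lay little above background, at 3.63 against 3.76, and is named after its values were seen. With brighter probe sets only, 3 of 4 genes were below 0, and with array weights 4 of 7. HSPB8 (Entrez Gene 416988), which works with BAG3 in clearing damaged muscle proteins, had the largest difference of all 110 members. It gave 8.72, 8.74 and 9.30 in FGF2 tissue and 9.76, 9.16 and 9.65 in PBS tissue, so FGF2 replicate 3 overlapped with PBS replicate 2. The mean was 8.92 ± 0.33 in FGF2 tissue and 9.52 ± 0.32 in PBS tissue (SD, n = 3 each), a difference of −0.60 ± 0.23 (1.51-fold lower; 95% interval −1.18 to −0.020; adjusted p = 0.548). HSPB1, the classical small heat shock protein of the chick, gave 9.86, 9.63 and 10.33 against 10.32, 9.94 and 10.41, or −0.29 ± 0.22, and −0.13 without FGF2 replicate 2. HSPB9, named after its values were seen, gave −0.16 on both of its probe sets.

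The order of the arrays in HSPB8 and HSPB1 was shared by part of the skeletal muscle markers and by the cartilage markers. FGF2 replicate 3 was the highest FGF2 array and PBS replicate 2 the lowest PBS array for both genes. The same held for 5 of the 8 muscle markers, namely ACTC1, MYL1, TNNT2, TNNI1 and TTN, and for the list as a whole. TTN, the giant sarcomere protein, gave 8.05, 7.31 and 8.58 in FGF2 tissue and 9.28, 8.03 and 8.94 in PBS tissue. In the other 3 markers, the myogenic transcription factors MYOD1, MYF5 and MYOG, FGF2 replicate 3 was also the highest FGF2 array but PBS replicate 1 was the lowest PBS array, and PBS replicate 2 was the highest for MYOD1 and MYF5. UNC45B, the HSP90 co-chaperone that folds muscle myosin, gave 7.63, 7.40 and 8.11 in FGF2 tissue and 8.70, 7.90 and 8.28 in PBS tissue, a difference of −0.58 ± 0.27 (adjusted p = 0.611). None of the 8 muscle markers was near background in either group. Each cartilage marker, namely COL2A1, SOX9, ACAN, MATN1 and EPYC, also had FGF2 replicate 3 highest and PBS replicate 2 lowest in its group. The order is therefore not particular to muscle genes. The part of muscle or cartilage cells in the levels of HSPB8, HSPB1 and UNC45B was not tested. The exception among the small heat shock genes was HSPB11, at 7.84, 7.85 and 7.91 in FGF2 tissue against 7.79, 7.76 and 7.70 in PBS tissue, with no overlap and a difference of 0.12 ± 0.037 (adjusted p = 0.494). It carries the family name but is known as IFT25, a component of intraflagellar transport in cilia.

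The chaperones of the ER had log2 fold changes below 0 in 9 of 10 genes, PDIA2 near background among them, with a median of −0.045. With the mean of the probe sets of a gene, 7 were below 0 and 3 above. As represented, 2 of the 10 had an unadjusted p under 0.05 in limma and lower values, beside 4.58% of all genes. Both are protein disulfide isomerases, which form and rearrange disulfide bonds in secreted proteins. PDIA5 (Entrez Gene 424249) gave 11.83, 11.85 and 11.97 in FGF2 tissue and 12.15, 12.00 and 12.16 in PBS tissue. Its groups did not overlap, and the difference was −0.22 ± 0.063 (1.17-fold lower; unadjusted p = 0.0149, adjusted p = 0.451). PDIA4 gave 12.49, 12.41 and 12.52 in FGF2 tissue and 12.58 in each PBS array, a difference of −0.10 ± 0.034 (adjusted p = 0.508). Its second probe set gave 10.99, 11.37 and 11.48 against 11.80, 11.71 and 11.38, or −0.35 ± 0.17, with FGF2 replicate 3 above PBS replicate 3.

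The best known folding factors of the ER differed less. HSPA5, the HSP70 of the ER and the usual marker of ER stress, gave 13.95, 13.95 and 13.87 in FGF2 tissue and 13.72, 14.02 and 13.95 in PBS tissue, a difference of 0.024 ± 0.083 with PBS replicate 1 lowest. HSP90B1, the HSP90 of the ER, gave −0.046 ± 0.038, and its interval of −0.14 to 0.049 stayed within 1.2-fold. Its second probe set gave 0.074 ± 0.081. The lectin chaperones calreticulin (CALR) and calnexin (CANX), which hold newly made glycoproteins, gave −0.056 ± 0.062 and −0.015 ± 0.026. A second probe set of CANX gave 0.022 ± 0.046. HSPA13, an HSP70 of microsomes, had the lowest value of the group at −0.28 ± 0.17, with 8.23, 8.01 and 7.68 in FGF2 tissue and 8.19, 8.10 and 8.49 in PBS tissue. Its groups overlapped, and without FGF2 replicate 3 the difference was −0.14. Its second probe set, little above background at 4.30 against 4.50, gave −0.21. Among the J-domain proteins that serve the ER, DNAJB14 gave 11.87, 11.92 and 11.91 in FGF2 tissue against 11.97, 11.96 and 11.99 in PBS tissue, with no overlap and a difference of −0.074 ± 0.024 (adjusted p = 0.501), but another probe set gave 0.027. DNAJB12 gave −0.13 ± 0.084 and DNAJC1 −0.10 ± 0.052. DNAJB9, which is induced in ER stress, had 3 probe sets at 0.14 ± 0.082, 0.47 ± 0.25 and 0.21 ± 0.31, with the groups overlapping in each.

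The median of the ER chaperones was also below 0 in all 14 alternatives that can move these medians, between −0.082 and −0.018, and so was that of the small heat shock proteins, between −0.22 and −0.0074. Single genes did not all follow. With the mean of the probe sets 3 of 10 ER chaperones lay above 0, and with array weights 3 of 7 small heat shock genes. Relative to the PBS mean, the median ER chaperone stood at −0.0038, −0.044 and −0.098 in FGF2 replicates 1, 2 and 3. In PBS replicates 1, 2 and 3 it stood at −0.0042, 0.0003 and 0.011, so FGF2 replicate 1 lay among the PBS arrays. Medians above 0 in all 14 were those of the DNAJA genes, the cytosolic HSP90 genes and the proteasome activators, inhibitor and assembly chaperones. The proteasome median was above 0 in 12 of 14 and the DNAJC median in 12, the exceptions being the comparison without PBS replicate 1 and the one with array weights. These alternatives reuse the same 6 arrays, and no test of a list was made.

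**Figure D5:**
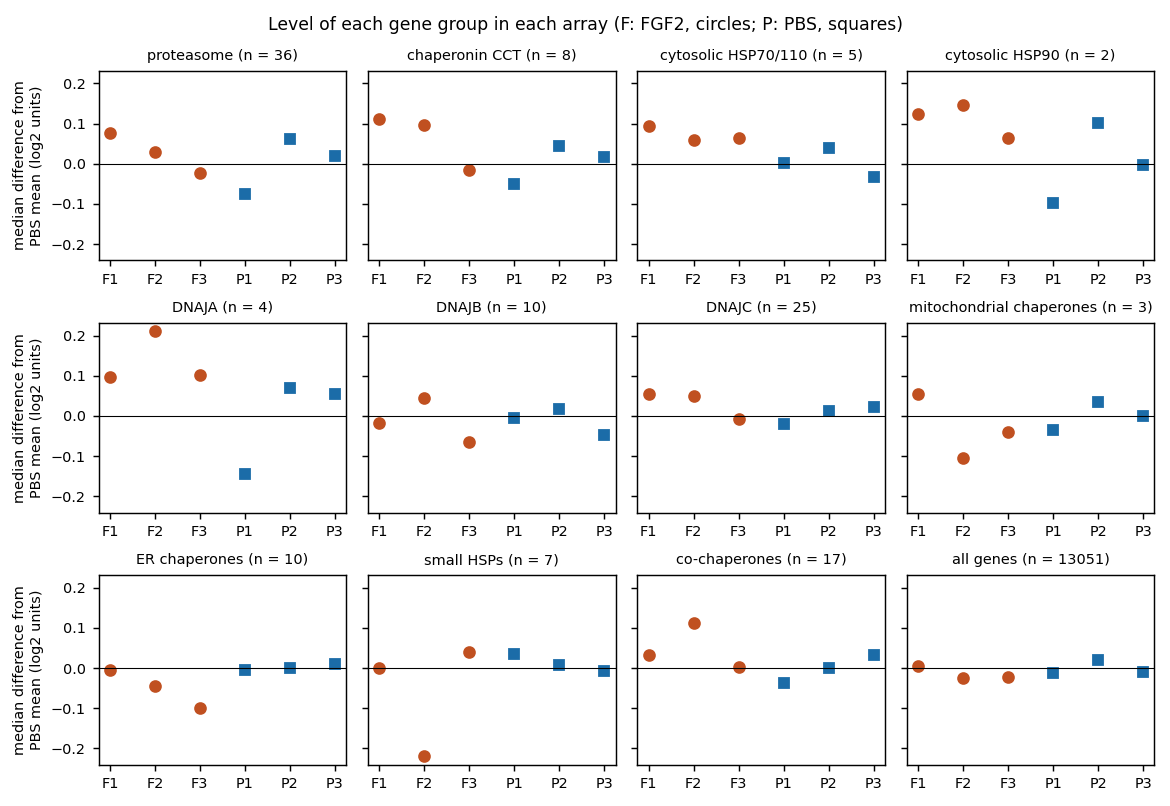
Median difference from the PBS mean (log2 units) over the genes of each group in each array, with FGF2 arrays (F1 to F3) as circles and PBS arrays (P1 to P3) as squares. The proteasome and chaperonin panels have PBS replicate 1 lowest, at −0.075 and −0.050, and the ER panel has FGF2 replicate 3 lowest, at −0.098.

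In mitochondria, HSPD1 and HSPE1, the chaperonin HSP60 and its lid HSP10, are neighbours in the chicken genome annotation of RefSeq (GRCg7b). HSPD1 gave 14.41, 14.40 and 14.25 in FGF2 tissue and 14.12, 14.47 and 14.34 in PBS tissue, or 0.043 ± 0.10, and HSPE1 gave −0.064 ± 0.052. Their intervals, −0.21 to 0.30 and −0.19 to 0.067, overlap widely. HSPA9, the mitochondrial HSP70, gave −0.030 ± 0.055.

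The J-domain proteins are the partners that hand substrates to HSP70 and trigger its ATPase, and 39 were measured, 23 above 0 and 16 below. All 4 DNAJA genes, the general co-chaperones, lay above 0, with a median of 0.14. DNAJA2 gave 13.31, 13.37 and 13.30 in FGF2 tissue and 13.23, 13.24 and 13.28 in PBS tissue, with no overlap and a difference of 0.076 ± 0.030 (adjusted p = 0.557). Its other probe sets gave −0.0069 and −0.28, the latter little above background at 3.86 against 4.15. DNAJA3, which acts in mitochondria, gave 11.84, 11.98 and 11.88 against 11.61, 11.83 and 11.81, a difference of 0.15 ± 0.073. Its other probe sets gave 0.034, −0.081 and −0.10, the last little above background at 4.1 against 4.2. PBS replicate 1 was the lowest array for all 4 of these genes. The 10 DNAJB genes were split evenly and had a median of −0.030. Of the 25 DNAJC genes 14 lay above 0, with a median of 0.049. On the representative probe sets no DNAJC gene had an unadjusted p under 0.05, beside 12.34% of all genes. The extremes were DNAJC12, at 0.20 ± 0.21, with 9.98, 10.31 and 10.61 in FGF2 tissue and 10.38, 9.85 and 10.06 in PBS tissue and a difference of 0.048 without FGF2 replicate 3, and DNAJC21, a factor of ribosome assembly, at −0.15 ± 0.10. DNAJC28 gave 8.30, 8.45 and 8.49 against 8.10, 8.32 and 8.28, a difference of 0.18 ± 0.079 (adjusted p = 0.596). DNAJC30, named after its values were seen, gave 0.072 ± 0.093 on its representative. A further probe set of DNAJC30 gave −0.16 ± 0.056 (limma, unadjusted p = 0.0304, adjusted p = 0.517).

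Among the regulators and partners of this machinery, no gene of 5 lists passed an adjusted p of 0.05. The heat shock factor list held 5 genes, of which 4 were measured, namely HSF2, HSF3, HSF4 and HSBP1. HSF1 has no value here. HSF2 gave 11.76, 11.68 and 11.69 in FGF2 tissue against 11.63, 11.63 and 11.64 in PBS tissue. Its groups did not overlap, and the difference was 0.080 ± 0.030 (adjusted p = 0.548). HSF3, a heat shock factor described in birds, gave 0.14 ± 0.077, and HSF4 was near background. Of 17 co-chaperones 11 lay above 0 and 6 below, and CHORDC1 and UNC45B, given above, were the extremes. Of the 5 prefoldin genes, whose products pass actin and tubulin to CCT, PFDN4 was highest at 0.013 and PFDN5 lowest at −0.058. Of 14 proteasome accessory and ubiquitin genes 7 lay above 0 and 7 below. NGLY1, the enzyme that strips sugars from misfolded ER glycoproteins and activates the transcription factor of proteasome genes NFE2L1, was the lowest of them, with 10.50, 10.29 and 10.37 in FGF2 tissue and 10.89, 10.93 and 10.60 in PBS tissue, a difference of −0.42 ± 0.11 (1.34-fold lower; adjusted p = 0.404). PAAF1 was the highest at 0.12. The FGF2 values lay below all PBS values for NGLY1 and POMP (2 of 14, beside 6.83% of all genes). POMP, named after its values were seen, gave 12.63, 12.36 and 12.64 in FGF2 tissue and 12.72, 12.84 and 12.69 in PBS tissue. Its difference was −0.21 ± 0.090 (limma, adjusted p = 0.593).

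Of 21 genes of the unfolded protein response and ER folding, 8 lay above 0 and 13 below, with a median of −0.020. The transcription factors of the response, XBP1 and ATF4, gave −0.085 ± 0.077 and 0.015 ± 0.053, and the sensor ERN1 gave −0.14 ± 0.10. HERPUD1, which is induced by it, gave 9.05, 9.30 and 9.39 in FGF2 tissue and 8.64, 9.18 and 8.99 in PBS tissue, a difference of 0.31 ± 0.16 (adjusted p = 0.643). The collagen chaperone SERPINH1 gave 11.85, 12.31 and 12.10 against 11.49, 12.05 and 12.08, or 0.21 ± 0.20, but 0.021 without PBS replicate 1. P4HB, a disulfide isomerase and collagen hydroxylase subunit, gave −0.076 ± 0.047. For each of these genes the groups overlapped. They did not overlap for SEL1L and ERP44, in both of which the FGF2 values lay below the PBS values (2 of 21, beside 6.83% of all genes). SEL1L, the adaptor of the ubiquitin ligase that clears misfolded ER proteins, gave 10.31, 10.35 and 10.28 in FGF2 tissue and 10.45, 10.40 and 10.37 in PBS tissue, or −0.094 ± 0.033 (unadjusted p = 0.0318, adjusted p = 0.521). ERP44, which retains unassembled proteins in the ER, gave −0.061 ± 0.037. Both are named after their values were seen.

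Probe sets of a gene did not always give the same direction. Of the 110 members 59 had more than 1 probe set. Of the 91 probe sets that were not the representative, 63 lay above background, and 38 of these 63 had the sign of their gene's representative. Over all 201 probe sets, 15 had an unadjusted p under 0.05 and 0 an adjusted p under 0.05 in limma. The share of all tested probe sets with such an unadjusted p was not counted, so the 15 cannot be set against a background. With 1 probe set a gene, 10 of the 110 members had an unadjusted p under 0.05, beside 12.34% of all genes.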

How the data were processed

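RNA of 3 FGF2 and 3 PBS samples was labelled with biotin and hybridized to Affymetrix Chicken Genome arrays, which carry sets of short oligonucleotide probes in 1 color. The authors deposited 1 table of log2 values, normalized by Robust Multi-array Averaging (RMA) per the methods and the submitters' processing notes. Base 2 is inferred from the values, which reach 15.95, and whether GC content entered the background step is not given in these sources. Values were used as deposited. Scanner files were not analysed here. With 3 arrays a group, precision is limited by their number.

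Of 38535 probe sets, 96 controls were left out. Of the 38439 tested, the platform annotation pairs 27168 with a single symbol, which alone were used for names, 177 with several and 11094 with none. All 110 members were found in the RefSeq gene table (GRCg7b). PSMD4, PSMD11, PSME1 and DNAJB1 are not named by any singly annotated probe set and have no value here. In 34 of the 110 members the representative belonged to a class that can match several transcripts. Background was described from 746 probe sets named after other records, with a median of 2.38. No sequences or coordinates are given.

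FGF2 was compared with PBS, two-sided, by the moderated test of limma 3.58.1 (lmFit, eBayes; R 4.3.3), with p-values adjusted by Benjamini-Hochberg over the 38439 probe sets and called under 0.05. The tests were tried on simulated data first. The members and lists were chosen with earlier results of these data known. The genes named are the 20 members with the smallest unadjusted p. Those with the highest and lowest log2 fold change of each group of members and partner list are named too. Preset chaperones, heat shock factors and ER stress genes complete the names. PSMD2, BAG3, HSPB3, HSPB9, SEL1L, ERP44, DNAJC30, HSBP1 and the CCT subunits other than TCP1 and CCT4 were named after their values were seen. The same holds for PSMD5, PSMD9, PSMD10 and POMP. Differences were taken between arrays. Levels of different probe sets were set against each other only to choose the brightest, to describe background and to keep brighter probe sets. Alternatives comprised the replicate number as a block, leaving out each array, quantile normalization again, median centring, brighter probe sets only, array weights, an intensity trend of the variance fitted robustly, no probe sets that can match several transcripts, gene means over probe sets, and an adjusted p under 0.1.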

Additional observations from a re-analysis of the deposited data

How the results depend on the processing

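No member passed an adjusted p of 0.05 in limma under any alternative but array weights, and none passed 0.1 in the comparison as reported, where 10 had an unadjusted p under 0.05. With array weights 5 passed (DNAJB5, DNAJB9, HSPB11 and PSME4 higher, DNAJB14 lower), beside 7.85% of all genes. That estimation stopped before it converged and gave FGF2 replicate 3 a weight of 8.45 and FGF2 replicate 1 a weight of 0.28. The number of probe sets called among all 38439 was 4. It became 1 with the replicate block, 7 after quantile normalization again, 39 with a variance trend and 2256 with array weights. It was 0 without PBS replicate 1 and FGF2 replicate 3 together, and 0 to 3 with each array left out. Over smaller sets with their own adjustment, 40 of 19219 brighter probe sets and 7 of 13051 gene means were called. The count of members with an unadjusted p under 0.05, of 110, became 6 with median centring, 4 with a variance trend and 31 with array weights. The share of all genes with such a p was 12.15%, 11.19% and 33.11% in these 3 alternatives. The member count was 5 with the mean of the probe sets (12.12% of all genes) and 2 to 10 with each array left out (7.18% to 14.08%). For brighter probe sets only it was 3 of 101 members, beside 13.71% of the genes kept. The median log2 fold change of the members ranged over −0.016 to 0.036 with each array left out, lowest without PBS replicate 1, and over −0.0087 to 0.025 otherwise.

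The replicate block moved no member past the threshold. With the replicate number as a block, 0 members were called and 7 had an unadjusted p under 0.05, beside 11.61% of all genes. The numbers share no label beyond the number itself, and deviations of same-numbered samples correlated at −0.27, 0.038 and −0.22, so they were not treated as pairs. FGF2 replicate 3 correlated with PBS replicate 1 at 0.39. FGF2 replicate 1 did so with PBS replicate 2 at 0.21, and FGF2 replicate 2 with PBS replicate 3 at 0.19. The remaining differently numbered samples gave 0.062, −0.18 and −0.21. The labels do not say which pools shared a day, and a block other than by number was not tested.

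Of 46 named members 28 kept their sign in every alternative, and of 15 named partners 10 did. CHORDC1 passed the threshold only with array weights (0.97, adjusted p = 0.0366). The largest differences whose signs turned were those of PSMG4 (−0.17 as reported), DNAJA3 (0.15), ERN1 (−0.14), PSMD13 (0.12) and HSPA4 (0.10). They turned only where other probe sets joined or replaced the representative, or with array weights, and the cause was not tested. Leaving out 1 array moved 47 of the 61 genes named by rule by over 1.5 times, of which 10 turned sign. Without PBS replicate 1 and FGF2 replicate 3 together, CANX became 0.0073, HSPA5 −0.038, HSPA9 0.0098, PFDN4 −0.051 and PSMB3 −0.022. With array weights ATF4 became −0.0096, CCT4 −0.029, ERN1 0.081, HSPA2 0.072, HSPD1 −0.0081, HSPE1 0.023, PSMD13 −0.13 and XBP1 0.055. With cyclic loess ATF4 became −0.00013 and PFDN4 −0.0064. With the mean of the probe sets CANX became 0.0034, DNAJA2 −0.072, DNAJA3 −0.00061, ERN1 0.088, HSP90B1 0.014, HSPA4 −0.038, PSMB7 0.039, PSMC3 −0.028 and PSMG4 0.037. When probe sets of the classes shared between transcripts were left out, DNAJA2 became −0.0069, HSPA9 0.0099, PSMC3 −0.13, PSMD13 −0.032, PSMD7 −0.011 and PSMG4 0.059. The probe sets then read for PSMC3 (3.10 in FGF2 against 3.23 in PBS tissue) and PSMD13 (2.73 against 2.77) were near background. The probe set means of PSMC3, DNAJA2 and DNAJA3 also include a probe set near or little above background. With each array left out the values ranged over −0.030 to 0.056 for ATF4, −0.056 to 0.063 for HSPA2, −0.063 to 0.084 for HSPA5, −0.073 to 0.0070 for HSPA9, −0.052 to 0.12 for HSPD1, −0.024 to 0.072 for PFDN4, −0.14 to 0.00013 for PFDN5, −0.037 to 0.11 for PSMB3, −0.025 to 0.0033 for PSMB5 and −0.13 to 0.021 for PSMB7. Cyclic loess and the removal of PBS replicate 1 with FGF2 replicate 3 were chosen after seeing the data.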
